A study of Mus musculus with 4 samples.

Results

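The circular RNAs (circRNAs) described here come from genes of the ubiquitin system. A circRNA was a member when both of its ends lay on exon boundaries of a protein-coding gene (GENCODE M21, mouse build GRCm38) whose symbol marks a ubiquitin ligase, a ubiquitin-conjugating enzyme or a deubiquitinase. The symbols taken were those that start with Usp, Ube, Trim, Rnf, Herc or Cul before a digit, those that start with Fbx or Anapc, and Arel1, a ligase named singly in the rule. This gave 581 circRNAs in 132 host genes, of 23980 circRNAs in the count table. Another 19161 circRNAs had both ends on exon boundaries of a protein-coding gene of any other name. The rule goes by name and not by function, so it also takes Usp6nl, which encodes an activator of Rab GTPases and not a deubiquitinase, and Ube2cbp, which encodes a protein that binds conjugating enzymes and acts as a ligase.

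Ubiquitin is a small protein that cells attach to other proteins as a mark, often for destruction by the proteasome. An activating enzyme (E1) passes it to a conjugating enzyme (E2), and a ligase (E3) chooses the target. RING ligases, among them the Rnf and Trim proteins, bring an E2 and its target together. HECT ligases such as the Herc proteins, Ube3a and Arel1 carry the ubiquitin themselves for a moment. Cullins are scaffolds of many-part ligases in which F-box proteins hold the target, and the anaphase-promoting complex is a related machine of the cell cycle. Ubiquitin-specific proteases, the Usp proteins, take the mark off again. A circRNA is made when the end of an exon is spliced backwards to the start of the same or an earlier exon of the gene. Mammalian brain, and neurons above all, are known for high circRNA levels. A read across the backward junction counts the circle and says nothing of the linear mRNA or of the protein.

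Each group was a single library of mouse brain tissue. The frontal core, occipital core and penumbra libraries came from mice 3 h after permanent occlusion of the middle cerebral artery with a filament, a model of ischemic stroke. They hold the part of the infarct core toward the frontal lobe, its part toward the occipital lobe, and the penumbra, the tissue at risk around the core. Each of these libraries was made from the pooled RNA of 6 mice. The sham library came from sham-operated mice, from the cortex at the places that match core and penumbra. The number of sham mice, the time of their sampling, and the strain, sex and age of any of the mice are not stated in the labels. All animals were perfused through the heart with ice-cold saline before the tissue was taken, and ribosomal RNA was removed before sequencing. With 1 library per group no difference below has a replicate check, and pooling hides the spread between mice.

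The libraries held 121393 circRNA counts in frontal core, 83090 in occipital core, 96349 in penumbra and 106558 in sham. Levels are given as CPM, counts scaled to the same total of circRNA counts in every library. A count of 0 allows up to 3 counts, which is 24.7 CPM in frontal core, 36.1 CPM in occipital core, 31.1 CPM in penumbra and 28.2 CPM in sham. Intervals are 95% intervals for counting error only, and sequenced copies without molecular identifiers are not independent molecules. In bulk tissue, fewer cells of a type and less RNA per cell cannot be told apart. CircRNAs of neuronal genes were present in all libraries. The 9 neuronal marker genes listed all had circRNAs, with summed levels of 18461 to 20602 CPM. No circRNA came from the markers listed for oligodendrocytes, microglia or blood, and of 6 astrocyte markers only 2 had any, with summed levels of 115 CPM in frontal core, 72.2 CPM in occipital core, 125 CPM in penumbra and 65.7 CPM in sham. Of 5 endothelial markers 1 had a circRNA, with at most 1 count in a library. Of 5 markers of ependyma and motile cilia, 2 had circRNAs and Foxj1, Spag17 and Dnah12 had none. The summed level was 1590 CPM in frontal core, 1276 CPM in occipital core, 1183 CPM in penumbra and 1295 CPM in sham. Of 6 striatal marker genes, 3 had circRNAs and Ppp1r1b, Drd1 and Drd2 had none. Their summed level was 453 CPM in frontal core, 313 CPM in occipital core, 228 CPM in penumbra and 206 CPM in sham. The striatal and the ependymal sums were highest in frontal core, each from only part of its list and without an interval. In the same library order the striatal sums rest on 55, 26, 22 and 22 counts. The ependymal sums rest on 193, 106, 114 and 138. The astrocyte sums rest on 14 counts in frontal core, 6 in occipital core, 12 in penumbra and 7 in sham, too few to rank the libraries. The part of any of these in the results below was not tested.

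The circRNAs on which the results turn are shown by the bases at their backward junction, which is what distinguishes a circle from the linear mRNA of the same gene. Each run is read on the strand of the host, from spliced GENCODE M21 transcripts (GRCm38), with the last 15 bases of the last exon in lower case and the first 15 bases of the first exon in capitals.
Rnf169 exons 2 to 4: agcgttcctggcaggAGTTTATATTCAGAA
Rnf121 exon 8: gatgttcagcaatccATTCCATGAATTCTG
Arel1 exons 2 to 8: tatgtgtcaccaaagGAGGATCCTGGTTCC
Arel1 exons 2 to 5: aaatttttcagcctgGAGGATCCTGGTTCC
Anapc1 exons 3 to 14: ggatcgatggatgagGAAAGCTGGCAGTTA
Cul1 exons 5 to 7: gaatatatgaaaaagCTTGCATTGGTGACA
Usp34 exons 8 to 10: tgggctgcagcacagAATCAGCTCCATACT
Usp9x exons 16 to 17: ctgcaggtcaatcagGTTTTTATTGAAGGA
Usp40 exons 19 to 22: agtcaggtcagcaagCTGAGAACAGCTGTT
The Arel1 circles share the capitals because both start at exon 2, and they differ in the lower-case bases. Fbxo38 is given by position only. A junction sequence of 30 bases could be built for 578 of the 581 members. None of these sequences occurred in a linear GENCODE M21 transcript, and none was shared with another circRNA of the table.

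The members made up nearly the same part of each library. They took 2.11% of the circRNA counts in frontal core (95% Clopper-Pearson interval 2.03 to 2.19), 2.21% in occipital core (2.11 to 2.31), 2.09% in penumbra (2.00 to 2.18) and 2.08% in sham (1.99 to 2.17). The intervals of all 4 libraries overlap. Of the 581 members, 382 were detected in frontal core, 376 in occipital core, 389 in penumbra and 404 in sham. Over the whole table of 23980 circRNAs, 16611, 15921, 16570 and 16226 were detected in the same library order. These counts were not adjusted for depth. Of all members, 161 were seen in all 4 libraries and 63 in a single one. That overlap was not counted over the whole table, so it is a description and not a trait of the members. Most were rare, with 424 members under 10 counts over the 4 libraries, 123 with just 2 counts, and a median of 5 counts, the same median as for the other circRNAs of protein-coding genes. Only 12 members reached 100 counts.

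A single circle stood far above the rest. Rnf169 encodes a RING ligase known in human cells for binding ubiquitin marks on histones beside broken DNA. Its circle of exons 2 to 4 (chr7:99935162-99955540, minus strand, coding exons, 340 bases spliced) held 11.9% of all member counts. It was the only member among the 100 most abundant circRNAs of the table, at rank 21. It had 315 counts in frontal core, 222 in occipital core, 254 in penumbra and 239 in sham, or 2595, 2672, 2636 and 2243 CPM in that order. The ischemic libraries lay above sham by similar amounts, with ratios of 1.16 (0.975 to 1.37) for frontal core, 1.19 (0.988 to 1.44) for occipital core and 1.18 (0.981 to 1.41) for penumbra. All 3 intervals include 1, and the adjusted p-values from Fisher's exact test were 0.463, 0.417 and 0.508. The 3 ratios share the sham library.

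The other members of the 10 most abundant came from several arms of the system and, with Rnf169, held 30.9% of the member counts. Ube2k, an E2 that builds ubiquitin chains, gave a circle of exons 2 to 6 (chr5:65565989-65594548, plus strand) with 59, 29 and 36 counts in frontal core, occipital core and penumbra and 53 in sham. Herc4, a HECT ligase, gave exons 14 to 19 (chr10:63289052-63307909, plus strand) with 82, 53 and 46 counts in the same ischemic libraries and 53 in sham. Among the F-box genes, Fbxl17, known in human cells for the quality control of BTB-domain proteins, gave exons 2 to 4 (chr17:63471408-63490887, minus strand) with 85, 46 and 57 counts and 79 in sham. Fbxw4, in which mutations are known in the limb defect dactylaplasia of mice, gave exons 2 to 5 (chr19:45630865-45640521, minus strand) with 48, 25 and 43 counts and 42 in sham. None of these 4 circles was called in any of the 6 comparisons described below.

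Of the deubiquitinase hosts, Usp32 and Usp3 gave the most abundant circles. Usp32 exons 2 to 5 (chr11:85077265-85104026, minus strand) had 48 counts in frontal core, 35 in occipital core, 41 in penumbra and 37 in sham. Usp3, which is known to remove ubiquitin from histones, gave exons 2 to 8 (chr9:66540062-66566903, minus strand) with 42 counts in frontal core, 36 in occipital core, 34 in penumbra and 47 in sham. For each of them the Poisson intervals of the 4 libraries overlap, and neither was called in any comparison. The remaining 3 of the 10 were circles of Fbxo38, Rnf121 and Cul1, described below.

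By family, the Rnf hosts carried the most counts and the Usp hosts the most different circles. The 32 Rnf hosts gave 90 circRNAs with 2434 counts, of which Rnf169 alone gave 1046. The 34 Usp hosts gave 195 circRNAs with 1698 counts, the 25 Fbx hosts 69 with 1602 counts, and the 5 Herc hosts 73 with 927 counts. The 9 Trim hosts gave 53 circRNAs with 641 counts, led by Trim37 with 254 counts, a RING ligase of peroxisomes and centrosomes. The 10 Ube2 hosts gave 28 with 479 counts and the 6 cullin hosts 23 with 366 counts. The smaller families were Ube3 with 203 counts (124 of them from Ube3a, the HECT ligase of Angelman syndrome), Anapc with 154, Ube4 with 62 and Arel1 with 60. The most abundant Ube3a circle, exons 2 to 4 (chr7:59240967-59247217, plus strand), had 40 counts in frontal core, 16 in occipital core, 23 in penumbra and 30 in sham. That of Ube4b, a U-box ligase that lengthens ubiquitin chains, joined exons 11 to 19 (chr4:149350658-149361340, minus strand) and had 11, 8 and 8 counts in the ischemic libraries and 3 in sham, with intervals of all ratios to sham that include 1. Neither circle was called in any comparison.

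Sums over each family were set against sham. The Trim sum was 1746 CPM in frontal core and 1841 CPM in occipital core, against 1323 CPM in sham, ratios of 1.32 (1.06 to 1.64) and 1.39 (1.10 to 1.76). In penumbra it was 1401 CPM, a ratio to sham of 1.06 (0.830 to 1.35). Both core ratios stayed above 1 with TMM factors, at 1.30 (1.04 to 1.62) and 1.29 (1.02 to 1.63), and with DESeq2 size factors, at 1.32 and 1.37. The Usp sum was 3929 CPM in frontal core, against 4495 CPM in sham, a ratio of 0.874 (0.768 to 0.994). It was 4140 CPM in occipital core and 4131 CPM in penumbra, with intervals that include 1 except for occipital core under TMM factors (0.740 to 0.981). The Herc sum was 2491 CPM in occipital core, against 2018 CPM in sham, a ratio of 1.23 (1.02 to 1.501) whose interval included 1 with TMM factors (0.939 to 1.39). The Arel1 sum was 206 CPM in frontal core and 193 CPM in occipital core, against 93.8 CPM in sham, ratios of 2.19 (1.02 to 5.12) and 2.05 (0.875 to 5.06). With TMM factors the interval for frontal core starts at 1.0002. Arel1 is a single host, and 24 of its 25 counts in frontal core are those of a circle called below. Its ratio thus reuses the counts behind that call, and the host sum itself was not called. The Ube4 sum was 189 CPM in frontal core, 193 CPM in occipital core and 145 CPM in penumbra, against 84.5 CPM in sham. Its ratios were 2.24, 2.28 and 1.72, with intervals that include 1 except for frontal core with DESeq2 size factors (1.004 to 5.53). The Ube2 sum in penumbra, 1017 CPM against 1314 CPM in sham, gave 0.774 (0.592 to 1.009), and 0.765 (0.585 to 0.998) with DESeq2 size factors. The Ube3 sum in penumbra gave 0.725 (0.468 to 1.11) and the Anapc sum in occipital core 1.35 (0.835 to 2.20). These are sums over unlike circles, with no test, so an interval that excludes 1 is a description. Families with a circle called below include the counts behind that call.

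**Figure D1:**
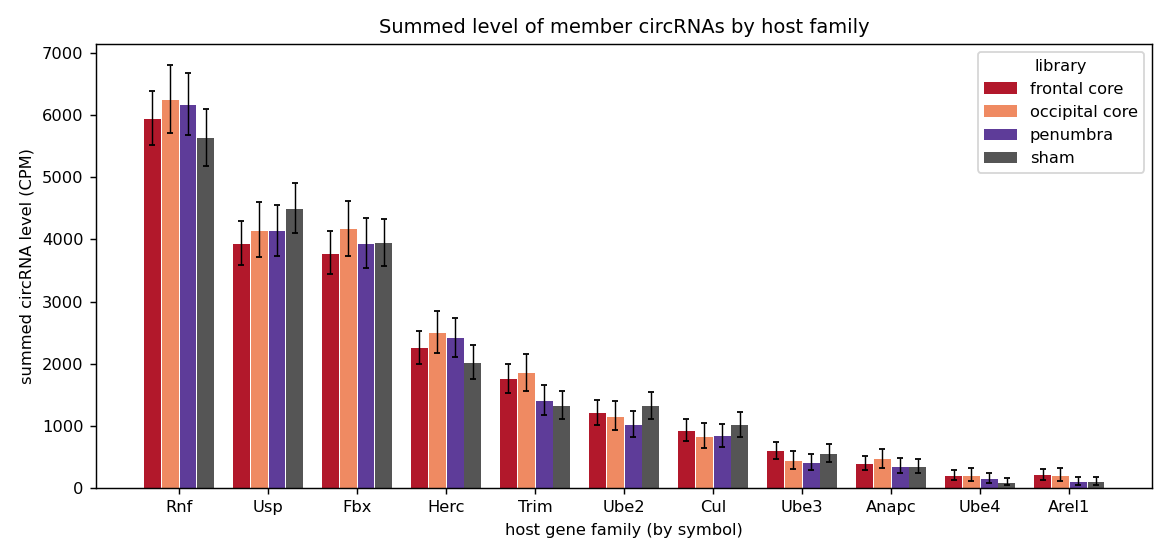
Summed level of the member circRNAs of each host family (vertical axis, CPM) in the frontal core, occipital core, penumbra and sham libraries, with 95% Poisson intervals for counting error. The Rnf sum lies between 5631 and 6246 CPM in all 4 libraries. The Trim sum is above sham in both core libraries, with a frontal core interval that overlaps that of sham.

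All 6 pairs of libraries were compared circle by circle. Every circRNA of the table with at least 10 counts in the pair was set against the rest of its library with Fisher's exact test (two-sided), and p-values were adjusted over all of those tested (Benjamini-Hochberg). The word called is kept for an adjusted p under 0.05 together with a 2-fold or larger CPM ratio either way. Such a test compares the 2 libraries and not the conditions. Depending on the pair, 488 to 500 of the 581 members had too few counts to be tested. Over the 6 comparisons 7 members were called, 1 of them in 2 comparisons. Each share of members called below rests on 1 or 2 circles. The called circles of Arel1, Anapc1, Usp34, Usp9x and Usp40 had under 10 counts in their lower library. They reached the minimum only with the counts of the library where they are high. None of the 8 calls held in the exact test of edgeR, in which a coefficient of variation of 0.2 between libraries was assumed, and with no count minimum only those of Rnf121 and Anapc1 did.

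Frontal core against sham tested 93 members. Of these 1 was called higher (1.08%), Arel1 exons 2 to 8, beside 0.289% of all circRNAs tested. Arel1 is named singly in the rule, and members were chosen with earlier results of these data known, so this share is a description. Called lower were 2 (2.15%), Rnf121 exon 8 and Usp9x exons 16 to 17, beside 0.458% of all. With DESeq2 size factors the split was 0 higher and 2 lower, and with TMM factors 1 higher and 3 lower. The median log2 ratio of the members was 0.16, beside 0.03 over all circRNAs tested, and 23.7% of them, beside 26.5% of all, lay past a 2-fold ratio. Unadjusted p-values under 0.05 were found for 11 members (11.8%, beside 14.2% of all). Of 75 member hosts tested by their summed counts, 1 was called, Rnf121, which was lower, beside 0.539% of all hosts. The median log2 ratio of the member hosts was 0.022, beside 0.025 over all hosts tested.

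Occipital core against sham tested 81 members. Anapc1 exons 3 to 14 and Fbxo38 exons 2 to 14 were called higher, 2 members (2.47%) beside 0.292% of all. Usp34 exons 8 to 10 was called lower, 1 member (1.23%) beside 0.175% of all. With TMM factors, which shift every ratio of this comparison by -0.11 on the log2 scale, the split was 1 higher and 2 lower, with Rnf121 exon 8 called lower and Fbxo38 not called. After removal of the GC trend it was 3 higher and 0 lower, with Rnf214 exons 3 to 6 added and Usp34 lost, and the calls over all circRNAs were 6 instead of 16. The median log2 ratio of the members was 0.36, beside -0.06 over all circRNAs tested, or 0.25 beside -0.17 with TMM factors. Past a 2-fold ratio lay 19.8% of the members beside 24.4% of all, and 9 members (11.1%, beside 12.6% of all) had an unadjusted p under 0.05. Of 71 member hosts, 1 was called, Fbxo38, which was higher, beside 1.17% of all hosts. Its only member is the called circle, so the host test repeats the same counts. The median log2 ratio of the member hosts was 0.12, beside -0.004 over all hosts tested.

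Penumbra against sham tested 85 members and called none, with 0 higher beside 0.0538% of all and 0 lower beside 0% of all. The median log2 ratio of the members was 0.15, beside 0.01 over all circRNAs tested. In this comparison 11 members had an unadjusted p under 0.05 (12.9%, beside 11.3% of all), and 3 by edgeR's exact test, which also called none. Of 76 member hosts 0 were called, beside 0.0868% of all hosts. The median log2 ratio of the member hosts was -0.04, beside 0.03 over all hosts tested. Penumbra against frontal core tested 93 members and called 1 higher (1.08%), Usp40 exons 19 to 22, beside 0.53% of all, and 0 lower beside 0.404% of all. Its host sum was the only one of 76 called, beside 0.547% of all hosts. That sum includes the counts of the called circle.

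Penumbra against occipital core tested 81 members and called 0 higher, beside 0.0303% of all, and 1 lower (1.23%), Fbxo38 exons 2 to 14, beside 0.0303% of all. By host sums Fbxo38 was the only one of 68 member hosts called, beside 0.092% of all hosts. Its only member is that circle, so the host test repeats the same counts. In that pair 7.41% of the members lay past a 2-fold ratio, beside 20.4% of all circRNAs tested. Frontal core against occipital core tested 90 members and called none, beside 0.185% of all called higher and 0.159% called lower. Here 7 members had an unadjusted p under 0.05 (7.78%, beside 11.8% of all), 5 by edgeR's exact test, which called none, and 0 of 68 member hosts were called, beside 0.392% of all hosts.

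**Figure D2:**
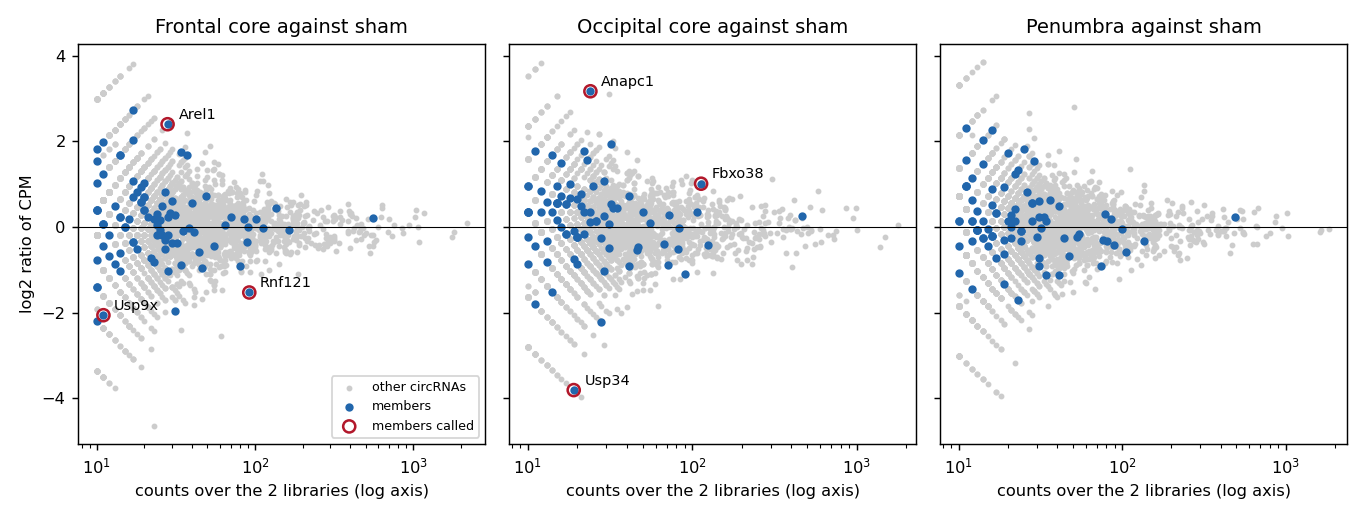
Log2 ratio of CPM (vertical axis) against the counts over the 2 libraries (horizontal log axis) for every circRNA tested in frontal core, occipital core and penumbra against sham, with members in blue, called members ringed in red and other circRNAs in grey. A library with 0 counts is set to 3 counts, and the members lie among the other circRNAs, with 3 ringed in each core comparison and 0 in penumbra.

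Rnf121 exon 8 had the smallest adjusted p of the called members. Rnf121 encodes a RING ligase anchored in membranes of the secretory pathway. The circle is a single coding exon of 102 bases (chr7:102023312-102023413, minus strand), and is shown whole with the bases that meet at the junction in capitals.
Rnf121 exon 8: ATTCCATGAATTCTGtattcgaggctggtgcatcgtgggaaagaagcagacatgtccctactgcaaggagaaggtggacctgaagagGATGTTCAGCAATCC
It had 26 counts in frontal core, 24 in occipital core, 40 in penumbra and 66 in sham. These are 214 CPM (140 to 314), 289 CPM (185 to 430), 415 CPM (297 to 565) and 619 CPM (479 to 788). Sham was highest, penumbra next and both core libraries lowest, and the intervals of the core libraries do not reach that of sham. The ratio of frontal core to sham was 0.346 (0.211 to 0.552), a 2.89-fold lower level, with an adjusted p of 0.00135 from Fisher's exact test. In occipital core the ratio to sham was 0.466 (0.279 to 0.754) with an adjusted p of 0.0664, which missed the threshold, and in penumbra 0.670 (0.441 to 1.02) with an adjusted p of 0.449. Penumbra against frontal core gave a ratio of 1.94 with an adjusted p of 0.167.

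The other Rnf121 circles did not follow exon 8. They join exons 2 to 6 and exons 2 to 4, and together had 12 counts in frontal core, 9 in occipital core, 9 in penumbra and 5 in sham. Frontal core against sham gave a ratio of 2.11 for them, with an interval of 0.691 to 7.63. The exon 8 circle made up 68.4% of the Rnf121 counts in frontal core (51.3 to 82.5), 72.7% in occipital core, 81.6% in penumbra and 93.0% in sham (84.3 to 97.7). The shares in frontal core and sham reuse the counts behind the call. Because exon 8 dominated, the host sum was also lower in frontal core, with 38 counts against 71 in sham, a ratio of 0.470 (0.308 to 0.706) and an adjusted p of 0.0311.

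Arel1 encodes a HECT ligase known in human cells for marking pro-apoptotic proteins released from mitochondria. It is the gene named singly in the rule, and members were chosen with earlier results of these data known. The circle of exons 2 to 8 (chr12:84934152-84951381, minus strand, 1454 bases spliced, part of it untranslated) had 24 counts in frontal core, 10 in occipital core, 7 in penumbra and 4 in sham, or 198, 120, 72.7 and 37.5 CPM in that order. Frontal core was highest and sham lowest. The ratio of frontal core to sham was 5.27 (1.81 to 20.9) with an adjusted p of 0.0492, just inside the threshold, and 0.0511 with DESeq2 size factors. The ratio to sham was 3.21 in occipital core and 1.94 in penumbra, with adjusted p-values of 0.401 and 0.805. The circle of exons 2 to 5 (chr12:84940160-84951381, 855 bases spliced) had 0 counts in frontal core, 4 in occipital core, 2 in penumbra and 5 in sham, too few to test in any pair, and the remaining Arel1 circle, exons 6 to 11, had 4 counts in all. The circle of exons 2 to 8 made up 96.0% of the Arel1 counts in frontal core (79.6 to 99.9) and 40.0% in sham (12.2 to 73.8). These shares reuse the counts behind the call and rest on 1 other count in frontal core and 6 in sham, so they are a description. The host sum of 25 counts in frontal core and 10 in sham was not called, with an adjusted p of 0.328.

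Fbxo38 encodes an F-box protein known in human cells to bring the immune checkpoint receptor PD-1 to its ligase. The only member of this host joined exons 2 to 14 (chr18:62516964-62541046, minus strand, 1959 bases spliced). It had 57 counts in frontal core, 69 in occipital core, 32 in penumbra and 44 in sham, or 470, 830, 332 and 413 CPM. Occipital core stood above the other 3 libraries. The ratio of occipital core to sham was 2.01 (1.36 to 3.01) with an adjusted p of 0.0416, close to both limits of the call. It was 1.86 with TMM factors and 1.99 with DESeq2 size factors, under 2 in both cases. With TMM factors the adjusted p from Fisher's exact test was 0.0718. The ratio of penumbra to occipital core was 0.400 (0.254 to 0.617) with an adjusted p of 0.0148, or 0.436 and 0.0465 with TMM factors. Frontal core against occipital core gave 0.565 with an adjusted p of 0.0954. All of these ratios share the occipital core library and its 69 counts, so they are not separate support. The level in frontal core differed from sham by a ratio of 1.14 and in penumbra by 0.804, with intervals that include 1.

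Anapc1 encodes the platform subunit of the anaphase-promoting complex. The circle of exons 3 to 14 (chr2:128668925-128684663, minus strand, coding, 1437 bases spliced) had 11 counts in frontal core, 21 in occipital core, 13 in penumbra and 3 in sham, or 90.6, 253, 135 and 28.2 CPM. All 3 ischemic libraries lay above sham, which was at the level that a count of 0 allows. The ratio of occipital core to sham was 8.98 (2.68 to 47.0) with an adjusted p of 0.00489. It was 4.79 for penumbra (1.32 to 26.2, adjusted p 0.245) and 3.22 for frontal core (0.850 to 17.97, adjusted p 0.392). The other 11 Anapc1 circles, with 2 to 12 counts each, summed to 22, 8, 10 and 19 counts in the same library order and gave a ratio of 0.540 (0.204 to 1.29) for occipital core against sham. The exons 3 to 14 circle was 72.4% of the Anapc1 counts in occipital core (52.8 to 87.3) and 13.6% in sham (2.91 to 34.9), shares that reuse the counts behind the call.

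Usp34 encodes a very large deubiquitinase known for acting on axin in Wnt signalling. The called circle joins exons 8 to 10 (chr11:23351592-23355098, plus strand, coding, 237 bases spliced) and is shown whole, with the bases that meet at the junction in capitals.
Usp34 exons 8 to 10: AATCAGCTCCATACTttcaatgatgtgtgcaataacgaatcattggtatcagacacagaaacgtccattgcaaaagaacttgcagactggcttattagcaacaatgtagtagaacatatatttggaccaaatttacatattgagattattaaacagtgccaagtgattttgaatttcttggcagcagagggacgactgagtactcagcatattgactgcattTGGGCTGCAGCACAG
It had 10 counts in frontal core, 1 in occipital core, 5 in penumbra and 18 in sham, or 82.4, 12.04, 51.9 and 169 CPM. Sham was highest and occipital core lowest. In occipital core it was 14.0-fold lower than in sham (2.22 to 585), with an adjusted p of 0.0421. The GC content of this circle is low, at 38.8%. In occipital core against sham the log2 ratio moved with GC content, with a fitted trend between -0.61 and 0.40. The fit used circRNAs with 20 or more counts in the pair, and this circle, with 1 and 18, lies below that minimum. With that trend removed the ratio was 0.0902 with an adjusted p of 0.122, and the circle was not called. The ratio to sham was 0.307 in penumbra and 0.488 in frontal core, with adjusted p-values of 0.334 and 0.429. The other 37 circles of Usp34 summed to 61, 30, 54 and 49 counts, a ratio of 0.785 (0.481 to 1.26) for occipital core against sham. The share of the circle in the Usp34 counts was 3.23% in occipital core (0.0816 to 16.7) and 26.9% in sham (16.8 to 39.1). These shares reuse the counts behind the call.

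Usp9x is an X-linked deubiquitinase gene with many known substrates. The circle of exons 16 to 17 (chrX:13123168-13124663, plus strand, 439 bases spliced) had 0 counts in frontal core, 3 in occipital core, 6 in penumbra and 11 in sham. Its order was that of Rnf121 exon 8, with frontal core lowest and sham highest, but so few counts do not resolve the order. The ratio to sham was 0.350 (0.0627 to 1.32) in occipital core and 0.603 (0.183 to 1.78) in penumbra. The circle was at least 4.18-fold lower in frontal core than in sham, taking 3 counts for the 0, and the exact interval of the fold for 0 against 11 counts starts at 2.86. The adjusted p was 0.0423. The other 11 circles of Usp9x had 19, 13, 23 and 22 counts in the same library order, and their frontal core to sham ratio was 0.758 (0.388 to 1.47). The circle was 0% of the Usp9x counts in frontal core (0 to 17.6) and 33.3% in sham (17.96 to 51.8), shares that reuse the counts behind the call.

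Usp40 encodes another ubiquitin-specific protease. Its circle of exons 19 to 22 (chr1:87965306-87968449, minus strand, coding, 267 bases spliced) had 10 counts in penumbra, 0 in frontal core, 5 in occipital core and 4 in sham. The other 3 Usp40 circles had 2, 0, 2 and 3 counts in these libraries, so that frontal core held no count of any Usp40 circle. The exons 19 to 22 circle was at least 4.20-fold higher in penumbra than in frontal core, taking 3 counts for the 0, and the exact interval of the ratio starts at 2.82. The adjusted p was 0.0345. With 0 counts in frontal core, the circle reached the minimum of 10 counts only through penumbra. By host sums penumbra was at least 5.04-fold higher than frontal core, with an interval that starts at 3.501 and an adjusted p of 0.0122. These sums include the counts of the exons 19 to 22 circle. For that circle, penumbra against sham gave a ratio of 2.76 with an interval of 0.797 to 12.1.

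**Figure D3:**
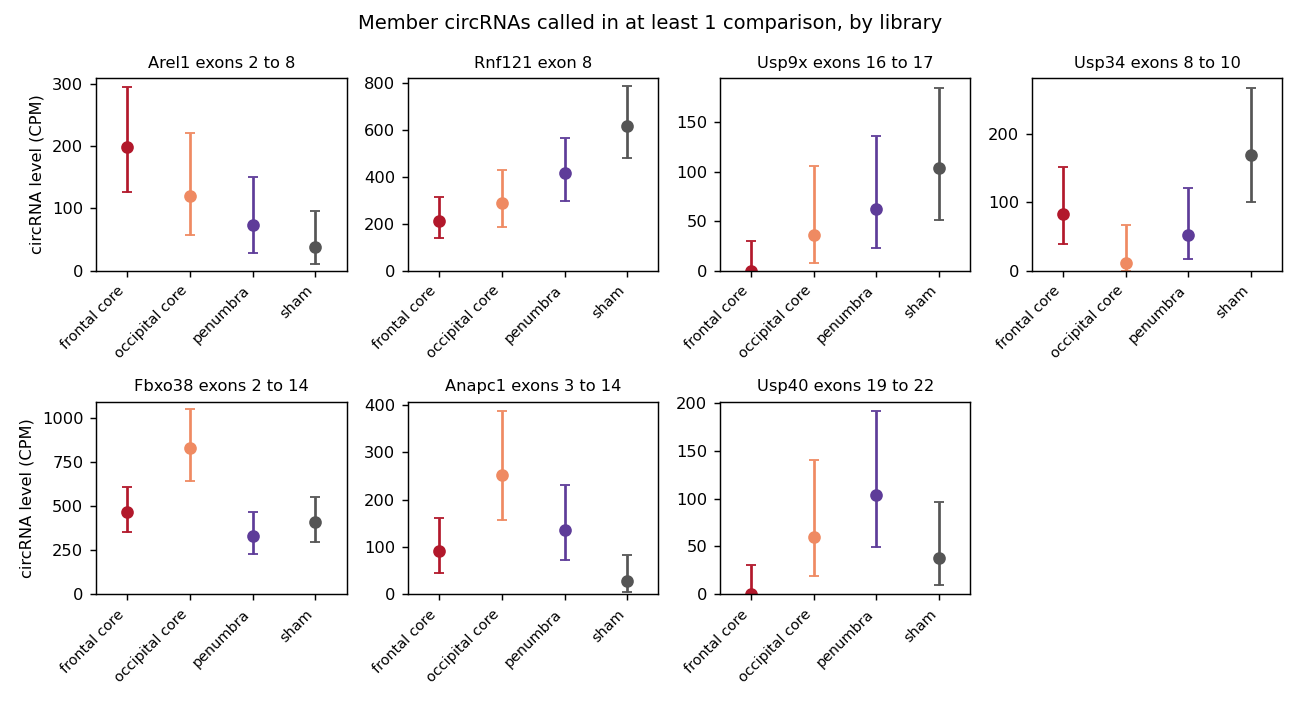
Level of the 7 called member circRNAs (vertical axes, CPM, each from 0) in the frontal core, occipital core, penumbra and sham libraries, with 95% Poisson intervals for counting error. Rnf121 exon 8 and Usp9x exons 16 to 17 are lowest in frontal core and highest in sham, Arel1 exons 2 to 8 is highest in frontal core and lowest in sham, and Fbxo38 and Anapc1 are highest in occipital core.

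**Figure D4:**
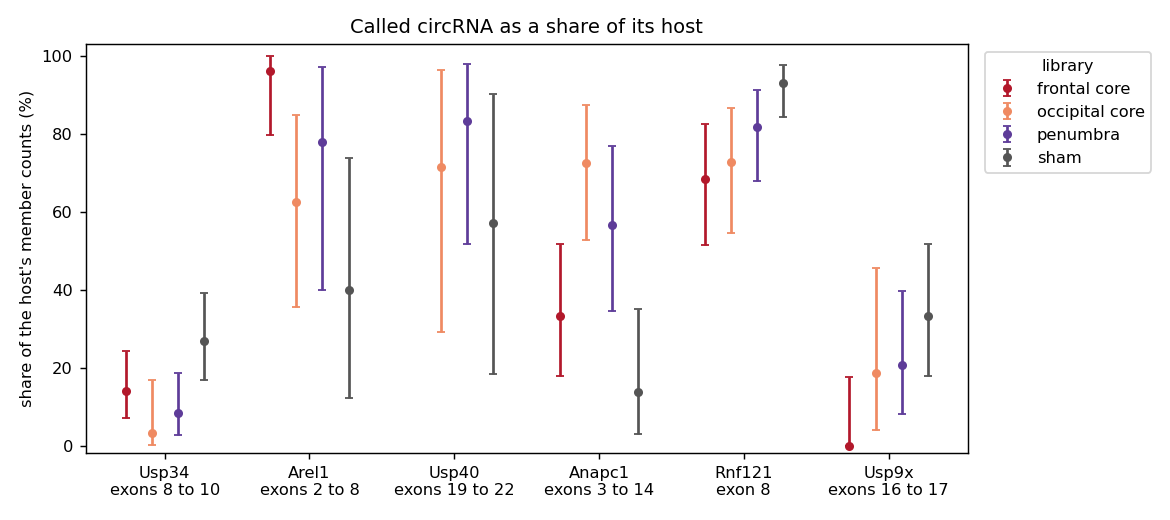
Share of the counts of a host that fell on its called circRNA (vertical axis, percent) in each library, with 95% Clopper-Pearson intervals, for the 6 called circRNAs whose host has other members. The share of Arel1 exons 2 to 8 is 96.0% in frontal core and 40.0% in sham, and that of Anapc1 exons 3 to 14 is 72.4% in occipital core and 13.6% in sham. Usp40 had no count in frontal core and so no share there. In the libraries of a call, the shares reuse the counts behind it.

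Some circles missed a call while lying to the same side of sham in all 3 ischemic libraries. How many members, or circRNAs of the whole table, do so was not counted. All 3 ratios of a circle share the sham library, so these circles are examples without a background. Cul1 encodes the scaffold of the SCF ligases that hold F-box proteins. Its circle of exons 5 to 7 (chr6:47501168-47502590, plus strand, coding, 306 bases spliced) had 30 counts in frontal core, 21 in occipital core, 24 in penumbra and 50 in sham, or 247, 253, 249 and 469 CPM. The 3 ischemic libraries were nearly equal. Their ratios to the shared sham library were 0.527 (0.323 to 0.845), 0.539 (0.307 to 0.913) and 0.531 (0.312 to 0.880), with adjusted p-values of 0.128, 0.255 and 0.249. Another circle of the same gene, which like Fbxw11 and Rnf214 below was chosen after its values were seen, joins exons 2 to 9 (chr6:47484744-47509103). It had 15, 6 and 6 counts in the ischemic libraries and 2 in sham, a ratio of 6.58 (1.53 to 59.3) for frontal core with an adjusted p of 0.0996.

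Fbxw11 encodes an F-box protein of the beta-TrCP type, known for marking the inhibitor of NF-kappa-B. Its circle of exons 3 to 4 (chr11:32708188-32711997) had 7 counts in frontal core, 4 in occipital core, 10 in penumbra and 24 in sham. The frontal core to sham ratio was 0.256 (0.0932 to 0.612) with an adjusted p of 0.0603. It was called lower in that comparison with TMM factors, with the GC trend removed and with a minimum of 30 counts. In the opposite direction, Rnf214 exons 3 to 6 (chr9:45890804-45900256) had 29, 24 and 21 counts in frontal core, occipital core and penumbra and 8 in sham. The occipital core to sham ratio was 3.85 (1.67 to 9.91) with an adjusted p of 0.0565, and it was called with a minimum of 30 counts and with the GC trend removed. Another Rnf214 circle, exons 9 to 10, likewise chosen afterwards, had 12, 8 and 16 counts in these libraries and 12 in sham.

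Many hosts gave families of overlapping circles. Of the 132 hosts, 38 gave a single member and 14 gave 10 or more. Usp34 gave 38 circles that used 23 different first exons and 26 different last exons, and the most abundant, exons 8 to 10, held only 14.9% of its 228 counts. Usp32 gave 30 circles, but those starting at exon 2 held 65.7% of its 297 counts and exons 2 to 5 alone 54.2%. Trim37 gave 26 circles from 11 first and 10 last exons, led by exons 7 to 8 (chr11:87146934-87149363) with 53 of 254 counts. That circle had 14 counts in frontal core, 18 in occipital core, 10 in penumbra and 11 in sham, with no call. Herc1 gave 22 circles, led by exons 2 to 3 with 30 of 129 counts, and Herc3 gave 21, led by exons 2 to 22 with 63 of 268. In Herc4, with 15 circles, exons 14 to 19 held 70.9% of its 330 counts. Circles of a host share exons and are not independent of each other, and exon numbers depend on the transcript chosen.

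**Figure D5:**
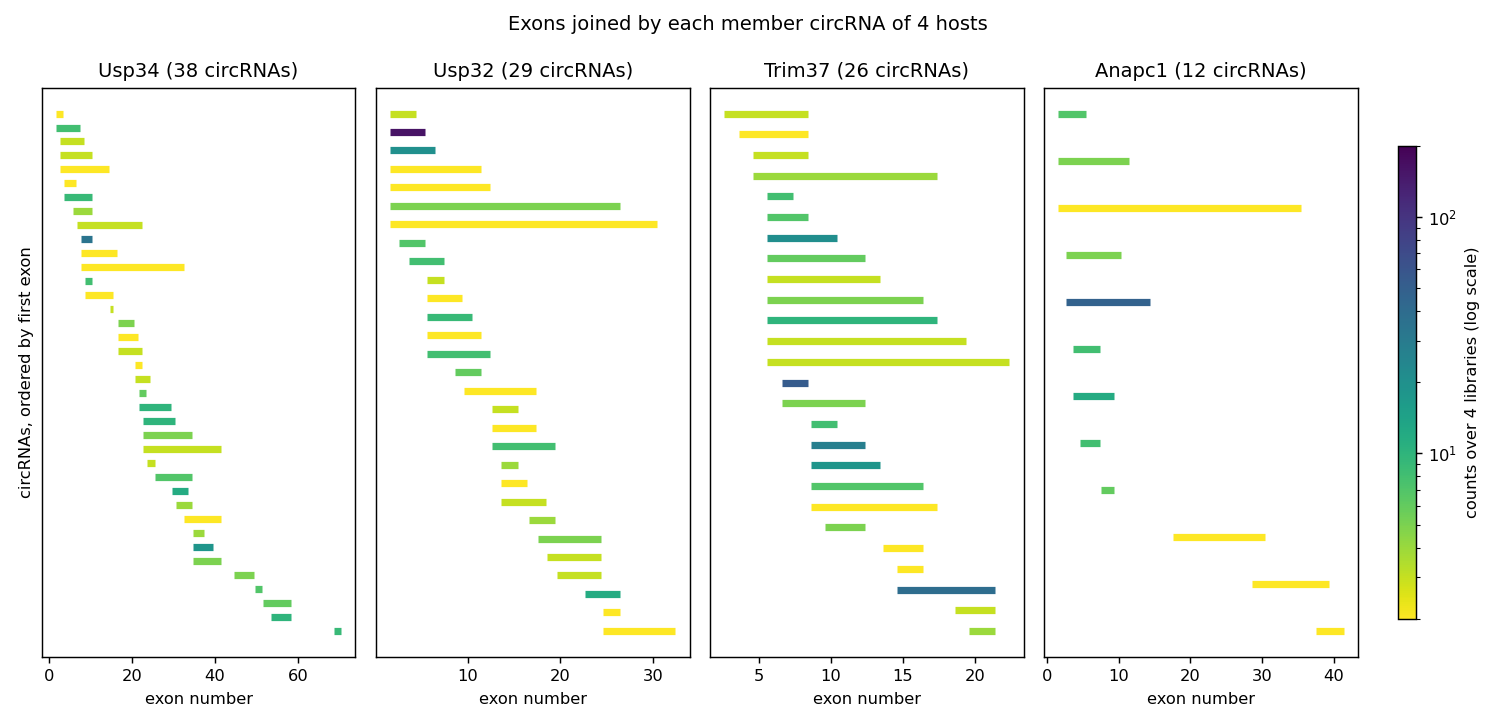
Exons joined by each member circRNA of Usp34, Usp32, Trim37 and Anapc1 (horizontal axes, exon number in transcription order; 1 bar per circRNA, ordered by first exon), with colour for the counts over the 4 libraries on a log scale. Usp34 circles spread along the gene with no dominant one, while most Usp32 counts lie on the exons 2 to 5 circle. Of the 30 Usp32 circRNAs, 29 have an exon order and are drawn.

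Members joined a median of 4 exons, as did the other circRNAs of protein-coding genes, and had a median spliced length of 561.5 bases beside 542. No member started at exon 1, beside 0.101% of the others, and 2.94% were single exons, beside 4.13%. Members started at exon 2 in 29.4% of cases, beside 24.0%, and by counts in 51.2%, beside 37.1%. The share by counts leans on the Rnf169 circle of exons 2 to 4, which alone holds 11.9% of the member counts. The median intron before a member was 5175 bases long, beside 8503, and the median intron after it 3652.5 bases, beside 6853. Median GC content was 45.4%, beside 47.7%. All exons were coding in 82.2%, beside 85.1%, and of those with only coding exons 38.9% had a length divisible by 3, beside 39.2%. These are descriptions with no test, since circles of a host share exons and introns.

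Other genes of the pathway were listed by name, with earlier results of these data known. They comprised 79 further hosts with 432 circRNAs and 5326 counts. The groups were E1 enzymes, other HECT and RING ligases, recognition ligases of the N-end rule, cullin partners, other deubiquitinases and the proteasome. In the 6 comparisons 49 to 64 of these circRNAs were tested and 0 were called higher or lower by Fisher's exact test. Over all circRNAs 0% to 0.53% were called in any 1 direction, so a count of 0 here is near the background. The median log2 ratio of these pathway circRNAs to sham was 0.20 in frontal core, -0.08 in occipital core and -0.05 in penumbra. Over all circRNAs tested it was 0.03, -0.06 and 0.01 in the same order. The hosts with the most counts were Mycbp2, a giant ligase of neurons, with 167, 113 and 111 counts in frontal core, occipital core and penumbra and 151 in sham, then Dcun1d4, which promotes the activation of cullins, with 148, 94 and 97 and 143 in sham. Ubr3, of the N-end rule family, had 134, 87 and 104 counts and 136 in sham.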

How the data were processed

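CircRNAs were measured by RNA sequencing in 4 mouse brain libraries, 1 per group, placed by their tissue and treatment labels. The authors deposited whole-number read counts for 23980 circRNAs, each with at least 2 counts in all, identified by chromosome, start and end and without normalization. The submitters' processing notes name TopHat2 2.0.10, Bowtie and the build mm9; the program that called circRNAs is not given in the sources used here. The coordinates fit GRCm38, with 89.1% of starts and 89.7% of ends on exon boundaries of GENCODE M21, against 0.192% of starts moved by 1 base, and are given as deposited. Per the labels' protocols RNA was extracted with Trizol and ribosomal RNA removed; both a TruSeq and a NEBNext directional kit are named. The table gives no strand; that of the host was taken, so genes that overlap cannot be told apart, and 2 members have a second candidate host. Exons are numbered on the protein-coding transcript with the most exons that holds both ends. The 4 columns of FPKM values that the authors also deposited were not used.

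Libraries were scaled to their total circRNA count. Fisher's exact test (two-sided) with Benjamini-Hochberg adjustment over all circRNAs with 10 or more counts in the 2 libraries gave every adjusted p, and host sums were tested likewise (Python 3.11.15, scipy 1.17.1). A count of 0 was set to 3 counts for a ratio. Ratios carry exact conditional (Clopper-Pearson) intervals, levels Poisson intervals. Scripts were tested on simulated data. Alternatives were a minimum of 30 counts or none, TMM factors (edgeR 4.0.16), DESeq2 1.42.0 size factors, a GC trend removed, a 1.5-fold threshold, the exact test of edgeR (coefficient of variation set to 0.2), and members with 1 end on a boundary. Named are called members and hosts, the 10 most abundant members, the top host and circle of each family, the 5 hosts with most circles, Arel1 circles with 10 or more counts, other circles of called hosts as ranges, and of other pathway genes the called and the 3 top hosts. Cul1 exons 2 to 9 and the Fbxw11, Rnf214 and Rnf121 circles were named after their values were seen. Members and lists were chosen with earlier results of these data known. Bases of introns beside the circles were not analysed here.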

Additional observations from a re-analysis of the deposited data

How the results depend on the processing

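No paired analysis was possible because each group holds 1 library. Of the 8 ratios of called members under 4 alternatives each (32 values), 20 were still called, 12 were not and 0 reversed. All 8 calls ended with the exact test of edgeR, with a coefficient of variation of 0.2 assumed between libraries, which called 0 members in each of the 6 comparisons and had 9, 6, 3, 3, 1 and 5 members at an unadjusted p under 0.05 (frontal core, occipital core and penumbra against sham, penumbra against frontal core, penumbra against occipital core, frontal core against occipital core). The calls by Fisher's exact test thus hold for counting error alone. With no count minimum the members called were 1 in frontal core against sham (Rnf121), 1 in occipital core against sham (Anapc1), 0 in penumbra against frontal core and 0 in penumbra against occipital core, where more circRNAs share the adjustment. With a minimum of 30 counts, penumbra against frontal core called 0 members and 0 hosts, since Usp40 was not tested, frontal core against sham called 2 hosts, with Fbxw11 added to Rnf121, and occipital core against sham called 3 members as before but not the same ones, Fbxo38, Rnf121 and Rnf214. Over all circRNAs, occipital core against sham gave 16 calls, against 26 with a minimum of 30 counts, 25 with a 1.5-fold threshold, 6 with the GC trend removed, 3 with no minimum and 0 with the exact test of edgeR. In occipital core against sham 0 hosts were called with TMM factors and 0 with DESeq2 size factors. Adding the 48 circRNAs with 1 end on a boundary of a member host made the member shares 2.24% in frontal core, 2.33% in occipital core, 2.19% in penumbra and 2.20% in sham, and called no further member. TMM factors shift occipital core against sham by -0.11 and penumbra against occipital core by 0.12 on the log2 scale. Depth limits the result, since 424 of the 581 members had under 10 counts in all.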
